A study of Mus musculus with 12 samples.

Results

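Transcripts of 42 genes of the cell cycle and of DNA replication were followed across 12 RNA-seq libraries of whole mouse cornea. The genes were picked by symbol from the deposited table, which held all 42 of them among 19702 genes, and all 42 were among the 16124 genes that passed a filter on low counts. By their known roles, 16 belong to S phase or its entry and 26 to G2 phase and mitosis. There were 4 groups of 3 libraries, and each library pooled 6 corneas of 3 mice. UCPRP and UCS corneas were injured with benzalkonium chloride (BAK), a detergent preservative of eye drops, and received UCPRP or UCS, a pair of cord blood products whose abbreviations the labels do not expand. Vehicle corneas were injured with BAK and, despite the name, are labelled as untreated. Control corneas had neither injury nor treatment. The injured corneas had a 5 µl drop of 0.2% BAK each day over 14 days. UCPRP and UCS were dosed at 20%, as 5 µl drops 3 times a day over 10 days. Neither strain and age, nor the order of injury and treatment, nor the hour of harvest were given in the sources used here.

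Dividing cells copy their DNA in S phase and separate the copies in mitosis. Genes of S phase are switched on by E2F factors, and genes of G2 and M phase are switched on later by complexes that hold B-Myb (Mybl2) and Foxm1. In resting cells a complex called DREAM, built on the same MuvB core, keeps both sets low. In the cornea the dividing cells are mostly those of the basal and limbal epithelium, which replace the cells shed from the surface, and mitoses in the rodent corneal epithelium are known to follow a daily rhythm. Dbp, a transcription factor driven by the clock proteins CLOCK and BMAL1, and Arntl, the gene for BMAL1, peak at opposite times of day.

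Library totals ran from 18554145 to 20443727 estimated counts, and the number of libraries rather than the depth limited the precision. Levels are CPM values, counts scaled to a common library size, and fold changes come from quasi-likelihood fits in edgeR, with p-values adjusted by Benjamini and Hochberg's method over the 16124 genes. Calls were made at an adjusted p below 0.05. The median standard error (SE) of the members' log2 fold changes between Vehicle and Control was 0.30. Nothing in the labels ties replicates of different groups together. In 4 libraries Dbp was lower than Arntl: UCS replicate 1, Vehicle replicates 1 and 2, and Control replicate 3 had 14.7 to 25.9 CPM of Dbp, against 139 to 280.3 CPM in the other 8. All 3 UCPRP libraries were high in Dbp and only 1 Vehicle library was, so the clock state and the group cannot be told apart in full. Corneal epithelium markers (Krt12 and 4 others) summed to 1871 to 2899 CPM in UCPRP, 1454 to 2746 CPM in UCS, 1043 to 1958 CPM in Vehicle and 25580 to 55420 CPM in Control. Krt12 itself ran from 3.29 to 186 CPM over the 9 injured libraries and from 15900 to 32870 CPM in Control. In Vehicle against Control all 5 of these markers fell, 7 of 7 markers of conjunctiva and goblet cells rose and 5 of 7 tested immune markers rose. Markers of retina, lens and skeletal muscle were present in all groups and varied within them. Over the 12 libraries they summed to 2295 to 13710 CPM for retina, 178 to 22310 CPM for lens and 5.96 to 922 CPM for skeletal muscle. In the 3 Vehicle libraries the retina markers summed to 2295, 10660 and 7987 CPM.

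The members varied across libraries by different amounts. CPM is not divided by gene length, so levels are compared between libraries and not between genes. Pcna, the sliding clamp of DNA polymerase, had 79.4, 85.5 and 73.9 CPM in UCPRP, 74.5, 82.5 and 82.0 CPM in UCS, 96.3, 90.5 and 69.8 CPM in Vehicle, and 76.7, 106 and 82.5 CPM in Control, in replicate order 1 to 3 here and below. Mki67, the chromosome surface protein used as the standard marker of proliferation, had 77.2, 44.98 and 49.97 CPM in UCPRP, 81.5, 64.0 and 106 CPM in UCS, 158, 126 and 52.7 CPM in Vehicle, and 81.2, 62.6 and 142 CPM in Control. Cdc6, the licensing factor that loads MCM helicase onto origins, had 6.24, 5.19 and 5.96 CPM in UCPRP, 4.14, 6.80 and 8.22 CPM in UCS, 8.88, 6.45 and 3.98 CPM in Vehicle, and 5.41, 6.82 and 6.21 CPM in Control. Vehicle replicate 1 was the highest library for Mki67 and for Cdc6, and Control replicate 2 for Pcna. The highest library exceeded the lowest by 1.46-fold for E2f1 and by 3.99-fold for Kif23, the ends of the range over the 42 members. Summed over all members, the libraries held between 866 CPM in UCPRP replicate 3 and 1805 CPM in Vehicle replicate 1.

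**Figure D1:**
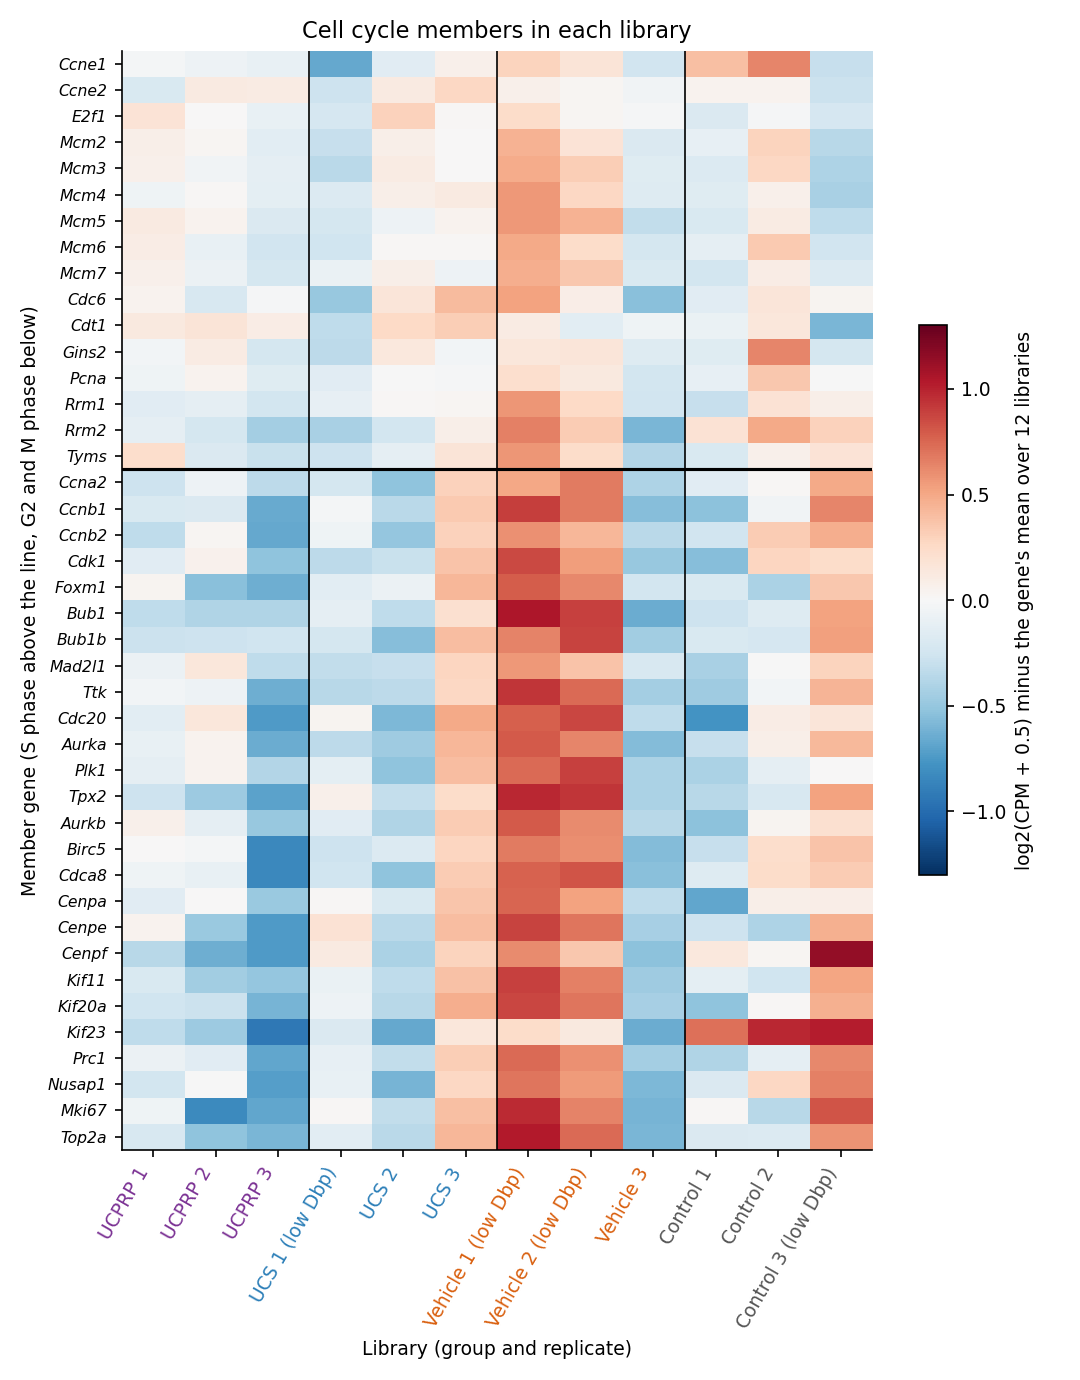
Levels of the 42 members in each of 12 libraries, as log2(CPM + 0.5) minus the gene's mean over the libraries, with S phase members above the line and G2 and M phase members below it. Vehicle replicates 1 and 2 are high for nearly all G2 and M phase members and Vehicle replicate 3 is low, while Kif23 is high in all 3 Control libraries.

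The promoters of the members are described by their E2F, CHR and CCAAT letters because the S phase and the G2 and M phase members are described apart. RefSeq windows of 300 bases (250 before the transcription start and 50 after it, GRCm38.p6) were at hand for 34 of the 42 members, 21 of them G2 and M phase genes and 13 S phase genes, and not for Ccna2, Ccne2, Foxm1, Mcm4, Gins2, Tpx2, Aurkb and Kif20a. A CHR element, the site at which the MuvB core is known to bind, was searched as TTTGAA or TTCGAA on both strands. It was found in 16 of the 21 G2 and M phase members (76.2%), in 2 of the 13 S phase members (15.4%) and in 21.7% of all 27025 genes with a window. CCAAT, the site of NF-Y, was found in 85.7% of the G2 and M phase members, 61.5% of the S phase members and 41.1% of all genes. An E2F site, searched as TTTCCCGC, TTTCGCGC, TTTGCCGC or TTTGGCGC, was found in 46.2% of the S phase members, 4.76% of the G2 and M phase members and 2.6% of all genes. CACGTG, the E-box of the clock proteins, a search added after the clock results had been seen, was found in 2 of the 34 members (5.88%) and in 8.09% of all genes. These shares describe letters in a window and not bound sites.

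The windows of 5 members are printed 5′ to 3′ on the strand of the gene, with CHR, CCAAT and E2F matches of either strand in capitals, so that CCAAT on the other strand reads ATTGG. Kif23 (chr9:61946750-61947049, minus strand) is the member that passed the test between groups. Bub1 (chr2:127831810-127832109, minus strand) and Cenpf (chr1:189688037-189688336, minus strand) are G2 and M phase members with some of the larger differences between low-Dbp and high-Dbp libraries. Mcm5 (chr8:75109259-75109558, plus strand) and Mcm6 (chr1:128359656-128359955, minus strand) are S phase members. Kif23 and Cenpf both have a CHR whose first base is base 3, counted from the transcription start that the window uses. The annotated spans of both genes begin upstream of that start, so another start would give another position. The 2 E2F matches of Mcm5 overlap on opposite strands.
Kif23: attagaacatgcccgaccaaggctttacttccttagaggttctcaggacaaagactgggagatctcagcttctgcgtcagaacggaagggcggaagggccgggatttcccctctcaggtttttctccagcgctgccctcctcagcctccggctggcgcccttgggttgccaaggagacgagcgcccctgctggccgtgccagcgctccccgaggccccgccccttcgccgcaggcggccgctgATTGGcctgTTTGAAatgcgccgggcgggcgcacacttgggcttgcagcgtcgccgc
Bub1: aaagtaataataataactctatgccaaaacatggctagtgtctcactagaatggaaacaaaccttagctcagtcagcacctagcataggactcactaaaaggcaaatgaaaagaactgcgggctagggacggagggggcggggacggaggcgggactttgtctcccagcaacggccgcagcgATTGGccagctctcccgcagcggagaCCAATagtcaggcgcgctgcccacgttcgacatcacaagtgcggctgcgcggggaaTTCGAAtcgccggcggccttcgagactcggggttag
Cenpf: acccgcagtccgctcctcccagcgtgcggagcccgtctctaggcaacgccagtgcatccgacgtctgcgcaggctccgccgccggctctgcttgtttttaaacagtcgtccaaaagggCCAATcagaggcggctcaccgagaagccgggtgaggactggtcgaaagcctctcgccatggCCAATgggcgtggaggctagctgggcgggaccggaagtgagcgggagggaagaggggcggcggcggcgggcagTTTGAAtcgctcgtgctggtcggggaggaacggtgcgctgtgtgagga
Mcm5: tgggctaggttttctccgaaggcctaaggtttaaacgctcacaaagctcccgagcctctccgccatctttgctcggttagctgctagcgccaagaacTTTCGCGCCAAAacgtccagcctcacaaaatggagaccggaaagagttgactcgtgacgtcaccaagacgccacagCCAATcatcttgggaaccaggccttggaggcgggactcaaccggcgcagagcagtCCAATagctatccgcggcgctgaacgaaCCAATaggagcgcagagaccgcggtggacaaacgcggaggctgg
Mcm6: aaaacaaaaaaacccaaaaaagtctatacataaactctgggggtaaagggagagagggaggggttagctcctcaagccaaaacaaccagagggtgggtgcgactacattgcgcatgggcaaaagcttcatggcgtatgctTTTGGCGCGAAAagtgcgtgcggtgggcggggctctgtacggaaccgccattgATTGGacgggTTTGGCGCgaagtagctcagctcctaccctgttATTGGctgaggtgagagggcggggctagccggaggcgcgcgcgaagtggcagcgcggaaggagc

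Set beside the clock state, the mean level of the G2 and M phase members was higher in 3 of the 4 low-Dbp libraries than in any high-Dbp library, and for the S phase members the ranges overlapped. The mean log2(CPM + 0.5) of the 26 G2 and M phase members was 4.16 in UCS replicate 1, 5.05 and 4.92 in Vehicle replicates 1 and 2, and 4.76 in Control replicate 3, the low-Dbp libraries. In the high-Dbp libraries it ran from 3.67 in UCPRP replicate 3 to 4.62 in UCS replicate 3. The low-Dbp library of UCS lay between its replicates 2 and 3. For the 16 S phase members the same mean was 4.33, 5.02, 4.81 and 4.43 in the low-Dbp libraries in that order, and 4.38 to 4.86 in the high-Dbp libraries.

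**Figure D2:**
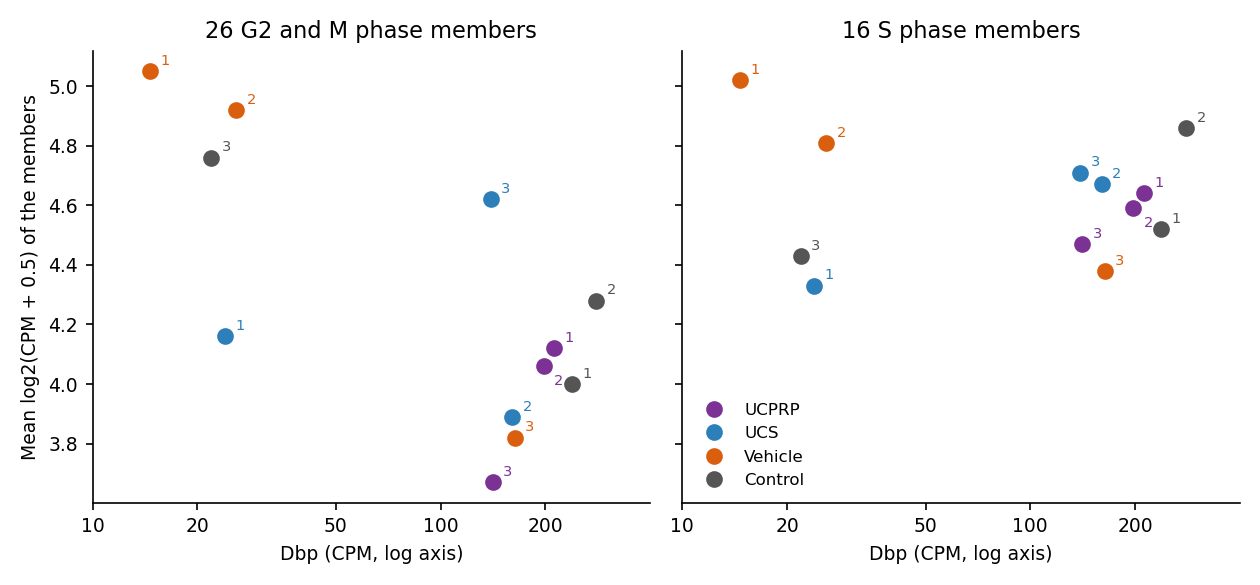
Mean log2(CPM + 0.5) of the G2 and M phase members (left) and of the S phase members (right) in each library against Dbp in CPM on a log axis, with the replicate number beside each point. At left 3 of the 4 low-Dbp libraries lie above every high-Dbp library and UCS replicate 1 does not; at right the low-Dbp and high-Dbp libraries overlap.

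A fit with clock state (low-Dbp against high-Dbp) beside group put all 26 G2 and M phase members higher in the low-Dbp libraries, by 0.30 to 0.80 on the log2 scale with a median of 0.56. The S phase members had a median of -0.02, with 7 of 16 higher, and all genes tested also had a median of -0.02. The difference between the classes was not tested. No member was called by edgeR, DESeq2 or limma-voom, where 0.0806% of all genes were called by edgeR, 33 genes higher and 42 lower by DESeq2, and 5 higher and 10 lower by limma-voom. At an unadjusted p under 0.05 by edgeR there were 12 members, 11 of them of G2 and M phase, against 4.82% of all genes. Cenpf, a kinetochore protein of G2 and M phase, had 12.7, 10.4 and 9.66 CPM in UCPRP, 17.8, 12.2 and 20.1 CPM in UCS, 25.3, 21.1 and 11.2 CPM in Vehicle, and 18.1, 16.7 and 36.8 CPM in Control. Within Vehicle and within Control its low-Dbp libraries were above the high-Dbp ones, and its log2 difference in the fit was 0.77 (edgeR adjusted p = 0.555, SE 0.21), the smallest p among the members. Tpx2, which activates Aurora A on the spindle, had 20.9, 18.1 and 15.5 CPM in UCPRP, 26.5, 20.4 and 30.0 CPM in UCS, 50.3, 48.7 and 18.9 CPM in Vehicle, and 19.6, 21.8 and 36.6 CPM in Control. In both Vehicle and Control its low-Dbp libraries were again the higher ones, and its log2 difference was 0.76 (edgeR adjusted p = 0.68, SE 0.22). Cdt1, the partner of Cdc6 in origin licensing, had 14.0, 14.5 and 13.8 CPM in UCPRP, 10.2, 15.4 and 16.1 CPM in UCS, 13.8, 11.6 and 12.3 CPM in Vehicle, and 12.1, 14.2 and 8.34 CPM in Control, and was the S phase member with an unadjusted p under 0.05, lower in the low-Dbp libraries with a log2 difference of -0.42. In size the differences of this fit rested on single libraries. The median of the G2 and M phase members was 0.21 without Vehicle replicate 3, with -0.33 for the S phase members. The G2 and M phase median was 0.94 without UCS replicate 1, 0.75 without UCS replicate 3 and 0.52 without Control replicate 3. Of the 26 members of that class, 25 were above 0 without Vehicle replicate 3, and all 26 on leaving out any other library. These fits share most of their libraries. With all 12 libraries 11 of the 26 had an unadjusted p under 0.05, and this number was 1 without Vehicle replicate 3, 1 without Control replicate 3, 6 without Control replicate 1, 7 without Control replicate 2, Vehicle replicate 1 or UCS replicate 2. It was 23 without UCS replicate 1, 24 without UCS replicate 3 and 7 with the retina share as a covariate.

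The low-Dbp and the high-Dbp libraries were also compared inside each group. Within Vehicle every G2 and M phase member, 26 of 26, was higher in both low-Dbp libraries than in replicate 3, with a median difference of 1.21 on the log2 scale, and 15 of 16 S phase members were too, with a median of 0.57. Of all genes tested 31.9% had that order in Vehicle. Within Control 25 of 26 G2 and M phase members were higher in replicate 3 than in both other libraries, with a median of 0.64, and of the S phase members 1 was higher and 10 were lower, with a median of -0.31. Of all genes 26.3% were higher and 28.5% lower in that sense. Within UCS no G2 and M phase member was higher in replicate 1 than in both others and 5 were lower, with a median of -0.11, and all 16 S phase members were lower, with a median of -0.34. There 35.6% of all genes were higher and 35.2% lower. The median over all genes was -0.03 in Vehicle, 0 in UCS and -0.01 in Control.

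**Figure D3:**
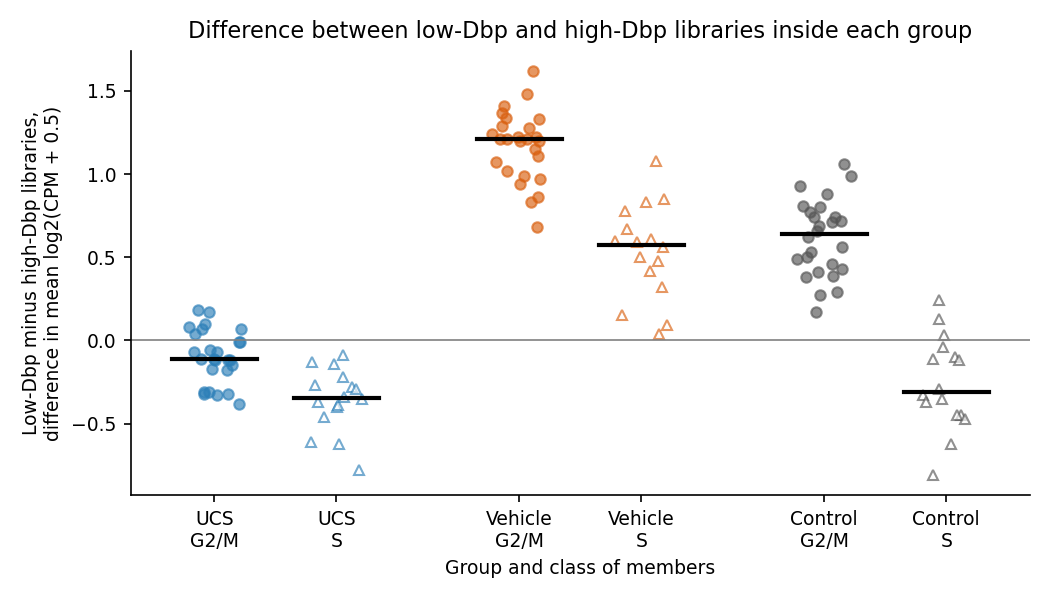
Difference in mean log2(CPM + 0.5) between the low-Dbp and the high-Dbp libraries inside UCS, Vehicle and Control, with 1 point per member and a bar at the median of each class. The medians of both classes are above 0 in Vehicle (1.21 and 0.57) and below 0 in UCS (-0.11 and -0.34), and in Control that of the G2 and M phase members is above 0 (0.64) and that of the S phase members below it (-0.31).

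Whether the difference between low-Dbp and high-Dbp libraries itself varied between groups was tested with an interaction term, a test added after these values had been seen. The members' difference was larger in Vehicle than in UCS by a median of 1.19 on the log2 scale. No member and no other gene was called, while 31 of 42 members had an unadjusted p under 0.05 by edgeR, against 4.58% of all genes. Bub1, the kinase of the spindle checkpoint, had 6.67, 6.37 and 6.37 CPM in UCPRP, 7.81, 6.70 and 9.91 CPM in UCS, 18.2, 16.2 and 5.26 CPM in Vehicle, and 7.003, 7.53 and 12.5 CPM in Control. It gave the smallest p of the members in that contrast (edgeR adjusted p = 0.443). Between Vehicle and Control 10 of 42 members had an unadjusted p under 0.05, against 2.45% of all genes, and the median difference was 0.66. Between UCS and Control 2 of 42 members had one, against 2.39% of all genes, and the median difference was -0.57. Each of these contrasts rests on 3 libraries a group, split 1 against 2.

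Some other transcripts separated the Vehicle libraries in the same way, and others did not. Of the basal epithelium markers, Trp63 had 183, 141.5 and 101 CPM in Vehicle, Itgb4 186, 145 and 107 CPM, and Krt14 5808, 4810 and 3642 CPM. Krt5 (6735, 5949 and 7101 CPM) and Krt15 (5040, 3953 and 6459 CPM) were highest in replicate 3. Ptprc, the leukocyte surface phosphatase CD45, had 47.5 and 40.4 CPM in Vehicle replicates 1 and 2 and 23.9 CPM in replicate 3, and S100a8, a protein of neutrophils, had 48.8, 55.2 and 6.33 CPM. Cd68 (84.2, 68.5 and 67.8 CPM) and Csf1r (80.6, 67.6 and 64.1 CPM) hardly set replicate 3 apart from replicate 2. The 7 tested immune markers, of 8 listed, summed to 1133, 922 and 796 CPM in the 3 Vehicle libraries. Among them Cd3e of T cells had 0.391 to 0.511 CPM. The skeletal muscle markers summed to 139, 417 and 922 CPM in Vehicle. In Control the immune markers summed to 288, 446 and 377 CPM, so replicate 3 was not the highest there. The part of other cell types in the members' levels was not tested, and in bulk tissue fewer cells of a type cannot be told from less RNA per cell.

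Vehicle corneas were set against Control corneas to ask how these genes respond to BAK injury. Of 42 members 1 fell (Kif23) and none rose by edgeR, DESeq2 or limma-voom, where edgeR called 6.92% of all genes tested lower and 9.58% higher. Besides Kif23, 1 member (Mcm4) had an unadjusted p under 0.05 by edgeR. That made 2 of 42 members, where 4609 of 16124 genes tested had one. The members' median log2 fold change was 0.31, with 36 of 42 above 0, beside a median of 0 over all genes. With clock state as a further term the median was 0.16. Among the high-Dbp libraries alone, where Vehicle has 1 library that is assumed to vary like the rest, it was -0.29 with 40 of 42 below 0. The median was 0.09 without Vehicle replicate 1, 0.15 without Control replicate 1 and 0.54 without Vehicle replicate 3.

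Among the cyclins and their kinase, Cdk1, which drives entry into mitosis, had 16.5, 19.1 and 12.7 CPM in UCPRP, 14.4, 14.9 and 23.9 CPM in UCS, 33.8, 27.0 and 12.9 CPM in Vehicle, and 12.4, 22.4 and 21.9 CPM in Control. Ccnb1, cyclin B1, its partner in mitosis, had 16.8, 16.9 and 12.03 CPM in UCPRP, 19.0, 15.0 and 24.5 CPM in UCS, 36.4, 31.0 and 13.0 CPM in Vehicle, and 13.1, 18.6 and 30.2 CPM in Control. Ccna2, cyclin A2, which acts in S phase and G2, had 36.8, 42.6 and 35.2 CPM in UCPRP, 37.8, 31.0 and 54.8 CPM in UCS, 63.5, 71.3 and 33.6 CPM in Vehicle, and 40.1, 44.96 and 62.9 CPM in Control. In all 3 genes Vehicle replicates 1 and 2 were high and replicate 3 was within or below the range of Control, so the groups overlapped. The log2 fold changes in Vehicle against Control were 0.38 (SE 0.35) for Cdk1, 0.37 (SE 0.37) for Ccnb1 and 0.19 (SE 0.28) for Ccna2. Ccne1, cyclin E1, which starts S phase, had 9.55, 9.29 and 9.10 CPM in UCPRP, 5.95, 8.73 and 10.2 CPM in UCS, 12.03, 11.04 and 8.12 CPM in Vehicle, and 12.9, 15.4 and 7.82 CPM in Control. It was lowest in UCS replicate 1, and in Vehicle it lay inside the range of Control (log2 fold change -0.21, SE 0.26). The related Ccnb2 and Ccne2 had log2 fold changes of 0.07 and 0.08, and none of the 6 genes of this role was called.

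The pair of transcription factors differed in spread. Foxm1, the forkhead factor that activates G2 and M phase genes, had 15.9, 10.5 and 9.82 CPM in UCPRP, 14.1, 14.7 and 21.1 CPM in UCS, 27.1, 24.2 and 13.1 CPM in Vehicle, and 13.5, 11.6 and 20.0 CPM in Control. Vehicle replicates 1 and 2 and UCS replicate 3 were above every Control library, and replicate 3 of Vehicle was not (log2 fold change of Vehicle against Control 0.52, SE 0.30). E2f1, an activator of S phase genes, had 8.38, 7.39 and 6.84 CPM in UCPRP, 6.27, 9.16 and 7.46 CPM in UCS, 8.77, 7.52 and 7.30 CPM in Vehicle, and 6.38, 7.29 and 6.26 CPM in Control. It was the most even of the members, and the lowest Vehicle library stood level with the highest Control library (log2 fold change 0.24, edgeR adjusted p = 0.394, SE 0.17).

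Origin licensing and firing gave 9 members, 8 of them above 0 in Vehicle against Control and none called. Mcm2 and Mcm5, like Mcm4, are subunits of the MCM2 to MCM7 helicase that unwinds DNA at the fork. Mcm2 had 39.7, 38.3 and 34.2 CPM in UCPRP, 30.4, 39.9 and 37.9 CPM in UCS, 51.7, 42.6 and 33.0 CPM in Vehicle, and 35.0, 46.3 and 29.4 CPM in Control. Mcm5 had 43.5, 41.3 and 35.3 CPM in UCPRP, 34.1, 38.2 and 41.4 CPM in UCS, 59.7, 54.9 and 32.1 CPM in Vehicle, and 35.0, 43.4 and 31.8 CPM in Control. Mcm4 had 46.4, 48.7 and 44.3 CPM in UCPRP, 42.7, 50.9 and 52.5 CPM in UCS, 71.7, 58.1 and 42.8 CPM in Vehicle, and 43.1, 50.4 and 36.0 CPM in Control, the smallest p of this role. For Mcm5 and Mcm4 Vehicle replicates 1 and 2 were above every Control library, for Mcm2 only replicate 1 was, and replicate 3 lay inside the range of Control for all 3 subunits. The log2 fold changes were 0.20 (SE 0.19) for Mcm2, 0.41 (SE 0.21) for Mcm5 and 0.41 (edgeR adjusted p = 0.147, SE 0.18) for Mcm4. Mcm3, Mcm6 and Mcm7 had log2 fold changes of 0.32, 0.19 and 0.34. Gins2, a subunit of the GINS complex that completes the helicase, had -0.09, and Cdc6 and Cdt1 had 0.07 and 0.13. In GENCODE M21 the gene Gm20388 overlaps Cdt1 on its own strand.

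The nucleotide supply genes and the clamp showed no call. Rrm1 and Rrm2 encode the large and the small subunit of ribonucleotide reductase, which makes deoxyribonucleotides. Rrm1 had 83.6, 85.0 and 78.3 CPM in UCPRP, 86.1, 93.7 and 94.4 CPM in UCS, 138, 111 and 77.9 CPM in Vehicle, and 75.0, 105 and 97.4 CPM in Control. Rrm2 had 20.8, 19.1 and 16.5 CPM in UCPRP, 16.7, 19.0 and 23.8 CPM in UCS, 35.9, 28.4 and 14.8 CPM in Vehicle, and 25.9, 31.9 and 27.9 CPM in Control. Tyms, thymidylate synthase, had 25.3, 18.9 and 17.5 CPM in UCPRP, 17.8, 19.8 and 24.1 CPM in UCS, 32.2, 25.4 and 16.4 CPM in Vehicle, and 18.7, 22.5 and 24.3 CPM in Control. In Rrm2 the 3 UCPRP and the 3 UCS libraries were all below the 3 Control libraries, while Vehicle overlapped all groups. The log2 fold changes in Vehicle against Control were 0.24 (SE 0.18) for Rrm1, -0.11 (SE 0.26) for Rrm2, 0.17 (SE 0.23) for Tyms and -0.04 (SE 0.14) for Pcna.

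The spindle checkpoint genes hold back anaphase until every chromosome is attached, and Cdc20, the activator of the anaphase-promoting complex, is what they restrain. All 5 members of this role were above 0 in Vehicle against Control, with a median log2 fold change of 0.53, and none was called. Cdc20 had 18.3, 22.4 and 11.9 CPM in UCPRP, 20.7, 13.3 and 28.6 CPM in UCS, 34.8, 37.1 and 15.9 CPM in Vehicle, and 11.6, 21.5 and 22.5 CPM in Control. Its Vehicle replicates 1 and 2 were above every other library, and replicate 3 was inside the range of Control (log2 fold change 0.66, SE 0.38). For Bub1 the same pair of libraries was highest and Vehicle replicate 3 was the lowest of the 12, at a log2 fold change of 0.55 (SE 0.38), and Bub1b, Mad2l1 and Ttk had 0.38, 0.30 and 0.53.

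For the mitotic kinases too, Vehicle replicates 1 and 2 stood above every other library. Plk1, Polo-like kinase 1, had 11.9, 13.4 and 9.87 CPM in UCPRP, 11.8, 8.89 and 17.3 CPM in UCS, 22.0, 24.4 and 9.65 CPM in Vehicle, and 9.63, 11.9 and 13.1 CPM in Control. Its log2 fold change in Vehicle against Control was 0.70 (edgeR adjusted p = 0.185, SE 0.32), the largest above 0 among the 42 members. Aurkb, Aurora B, the kinase of the chromosomal passenger complex, had 9.98, 8.73 and 6.63 CPM in UCPRP, 8.55, 7.18 and 12.1 CPM in UCS, 16.9, 14.9 and 7.30 CPM in Vehicle, and 6.44, 9.79 and 11.1 CPM in Control. Its log2 fold change was 0.52 (SE 0.32), and Birc5 (survivin) and Cdca8 (borealin), which anchor the same complex, had 0.21 and 0.33. Tpx2 and Aurka had 0.59 and 0.32.

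At the centromere, Cenpa, the histone H3 variant that marks it, had 11.7, 13.0 and 9.15 CPM in UCPRP, 13.1, 11.2 and 16.8 CPM in UCS, 22.2, 18.9 and 10.2 CPM in Vehicle, and 7.93, 13.7 and 13.8 CPM in Control. Its log2 fold change in Vehicle against Control was 0.53 (SE 0.30). Cenpe, a kinetochore motor, had 0.51 (SE 0.36). Cenpf went the other way, at -0.31 (SE 0.34), and its highest library was Control replicate 3.

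Among motors, markers and chromosome proteins, Kif11, the motor that pushes the spindle poles apart, had 21.7, 18.1 and 17.4 CPM in UCPRP, 23.4, 19.7 and 32.7 CPM in UCS, 46.7, 39.5 and 17.9 CPM in Vehicle, and 22.8, 20.8 and 35.8 CPM in Control. Top2a, the topoisomerase that untangles sister chromatids, had 64.7, 51.8 and 49.3 CPM in UCPRP, 67.6, 58.2 and 100.5 CPM in UCS, 152, 125 and 49.2 CPM in Vehicle, and 65.4, 65.8 and 112 CPM in Control. Prc1, which bundles microtubules at the middle of the spindle, had 34.4, 32.5 and 22.4 CPM in UCPRP, 33.5, 28.8 and 45.4 CPM in UCS, 60.8, 55.0 and 26.5 CPM in Vehicle, and 27.4, 33.5 and 56.1 CPM in Control. In each of these, and in Mki67, Vehicle replicate 1 was the highest library, and Vehicle replicate 2 and Control replicate 3 were the next 2. The log2 fold changes in Vehicle against Control were 0.39 (SE 0.32) for Kif11, 0.42 (SE 0.37) for Top2a, 0.28 (SE 0.33) for Prc1 and 0.23 (SE 0.40) for Mki67. Prc1 is overlapped by Rccd1 on the other strand, and the sources used here do not say whether counting used the strand. By GENCODE M21 gene spans 9 members overlap a protein-coding gene on the other strand, Ccne2 and Gins2 among them.

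Kif23 encodes the motor subunit of centralspindlin, the complex that organises the middle of the spindle and the contractile ring when daughter cells part. The gene (Entrez 71819) lies on chromosome 9 from 61917277 to 61946810 on the minus strand of GRCm38, and no annotated gene overlaps it. It had 17.9, 16.1 and 11.6 CPM in UCPRP, 19.7, 14.0 and 25.0 CPM in UCS, 26.7, 24.6 and 14.2 CPM in Vehicle, and 37.3, 44.96 and 46.2 CPM in Control. Each of the 9 injured libraries was below each of the 3 Control libraries. Kif23 averaged 15.2 ± 3.25 CPM in UCPRP, 19.6 ± 5.47 CPM in UCS, 21.8 ± 6.70 CPM in Vehicle and 42.8 ± 4.79 CPM in Control (SD, n = 3). It fell in Vehicle against Control (log2 fold change -0.97, edgeR adjusted p = 0.0251, SE 0.26), in UCS against Control (log2 fold change -1.13, edgeR adjusted p = 0.0168, SE 0.26) and in UCPRP against Control (log2 fold change -1.50, edgeR adjusted p = 0.00449, SE 0.26). These 3 comparisons share the Control libraries. The same groups differed in their markers of corneal epithelium (1043 to 2899 CPM in the injured libraries and 25580 to 55420 CPM in Control) and of immune cells (698 to 1133 CPM in the injured libraries and 288 to 446 CPM in Control), whose part in this result and in the calls of other genes against Control was not tested.

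**Figure D4:**
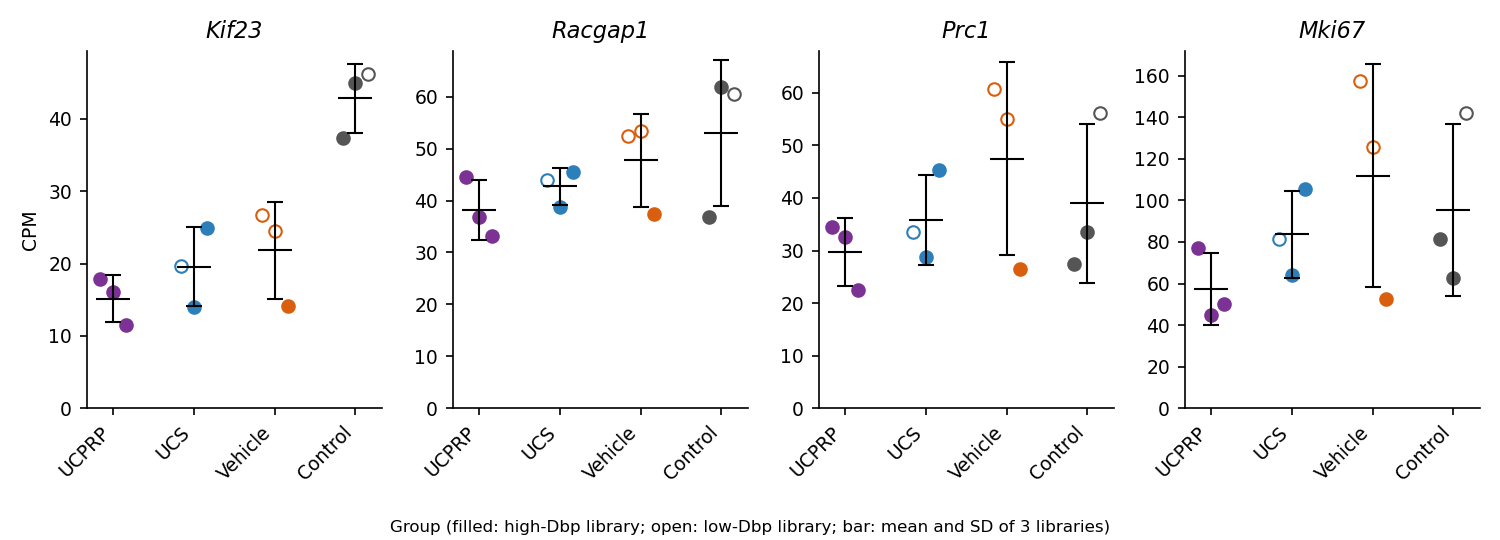
CPM of Kif23, of its partner Racgap1, and of Prc1 and Mki67 in each library by group, with the mean and SD of 3 libraries as bars, and open points for low-Dbp libraries. Kif23 is above 37 CPM in each Control library and below 27 CPM in each injured library, and the groups overlap for the other 3 genes.

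Kif23 also left the pattern of the other G2 and M phase members. Set against the mean of the other 25 in each library, its log2 level was 0.08, -0.01 and -0.08 in UCPRP, 0.19, -0.03 and 0.05 in UCS, -0.29, -0.29 and 0.06 in Vehicle, and 1.3, 1.27 and 0.82 in Control. It was the 1 member of 42 whose Control libraries all lay above all injured ones on that scale, where 1.18% of all genes did so against the mean of the 26. Kif23 had already been called against Control in these same libraries, so this order is a description and no further test. Racgap1, the other subunit of centralspindlin, had 44.4, 36.9 and 33.3 CPM in UCPRP, 44.0, 38.7 and 45.5 CPM in UCS, 52.5, 53.4 and 37.4 CPM in Vehicle, and 36.8, 61.9 and 60.4 CPM in Control. The groups overlapped for Racgap1, and it was not called in Vehicle against Control (log2 fold change -0.15, edgeR adjusted p = 0.708, SE 0.20), in UCS against Control (-0.31) or in UCPRP against Control (-0.47). The Kif23 call held in each of the 16 settings tried for UCPRP against Control, in 11 of 17 for UCS and in 11 of 17 for Vehicle. In Vehicle against Control the edgeR adjusted p was 0.0722 without Control replicate 2, 0.0693 without Control replicate 3, 0.0535 without Vehicle replicate 2 and 0.0649 without Vehicle replicate 3, and it was 0.0998 within the high-Dbp and 0.155 within the low-Dbp libraries. In UCS against Control it was 0.0564 without Control replicate 2, 0.0526 without Control replicate 3, 0.0512 without UCS replicate 1 and 0.068 without UCS replicate 2 by edgeR, and 0.0932 and 0.36 within the high-Dbp and the low-Dbp libraries. The log2 fold change was negative in each of these settings.

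UCPRP and UCS corneas were set against Vehicle corneas to ask how the treatments change these genes in injured tissue. In UCPRP against Vehicle the members' median log2 fold change was -0.60, with 40 of 42 below 0, beside 0.03 over all genes, and in the G2 and M phase members it was -0.74. No member was called by edgeR, DESeq2 or limma-voom. Of all genes edgeR called 0%, limma-voom called none and DESeq2 called 6 higher and 139 lower. At an unadjusted p under 0.05 there were 10 members, where 9.75% of all genes had one. Tpx2 had the smallest p, at -1.11 on the log2 scale (edgeR adjusted p = 0.359, SE 0.34). Bub1 had -1.03 (SE 0.38), Top2a -0.98 (SE 0.37) and Mki67 -0.96 (SE 0.40). In these 4 genes each UCPRP library was below Vehicle replicates 1 and 2, and Vehicle replicate 3 was inside the range of UCPRP or below it. Markers of other cells also had values below 0 in UCPRP against Vehicle, by edgeR none of them called: 7 of 7 tested immune markers (sums of 698 to 702 CPM in UCPRP and 796 to 1133 CPM in Vehicle, 3 at an unadjusted p under 0.05, Ptprc at -1.27), 3 of 3 vessel markers (Pecam1 at -0.85) and 5 of 7 markers of conjunctiva and goblet cells (Muc5b at -2.09). DESeq2 called 2, 1 and 1 of these lower. Markers of basal epithelium were split, with Trp63 at -0.61, Itgb4 at -0.46 and Krt14 at -0.64. Krt5 at 0.15 and Krt15 at 0.45 went the other way. Every marker of corneal epithelium, retina and lens was above 0, and every marker of skeletal muscle was below 0. The part of other cells in the members' values was not tested.

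In UCS against Vehicle the members' median was -0.38, with 40 of 42 below 0. No member was called by edgeR, DESeq2 or limma-voom. Of all genes edgeR called 0%, limma-voom called none and DESeq2 called 3 higher and 11 lower. By edgeR no member had an unadjusted p under 0.05, where 4.85% of all genes had one. Bub1 had a log2 fold change of -0.70 (SE 0.38), Tpx2 -0.62 (SE 0.34), Top2a -0.53 (SE 0.37) and Mki67 -0.42 (SE 0.40). Both comparisons share the Vehicle libraries. In UCPRP against UCS the median was -0.14, with 35 of 42 below 0, no member or other gene was called (0% of all genes) by any of the 3 tools, and no member had an unadjusted p under 0.05, where 2.44% of all genes had one. Cenpf lay furthest from 0 there, at -0.61 (SE 0.35).

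These medians changed when clock state entered the fit, when libraries were split by it and when single libraries were left out. Vehicle replicate 3 is the only high-Dbp Vehicle library, so clock state and that library cannot be told apart here. With clock state as a term the median of UCPRP against Vehicle was -0.27 and that of UCS against Vehicle -0.18. Among the high-Dbp libraries alone, where Vehicle replicate 3 stands by itself, the median was 0.17 in UCPRP against Vehicle, with 39 of 42 above 0, and 0.44 in UCS against Vehicle, with 42 of 42 above 0. Among the low-Dbp libraries alone, UCS replicate 1 was below Vehicle replicates 1 and 2 with a median of -0.79 and 42 of 42 members below 0. The median of UCS against Vehicle was -0.17 without Vehicle replicate 1 and -0.65 without Vehicle replicate 3, and that of UCPRP against Vehicle was -0.38 and -0.88. Without Vehicle replicate 3, Bub1 and Tpx2 were called lower in UCPRP against Vehicle, and Mcm4, Mcm5, Mcm7, Bub1, Plk1 and Tpx2 were called higher in Vehicle against Control. In that fit edgeR called 2442 genes in Vehicle against Control, higher or lower, beside 2661 with all 12 libraries, so many other genes were called too. The number of all genes called in UCPRP against Vehicle in that fit is not given here.

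**Figure D5:**
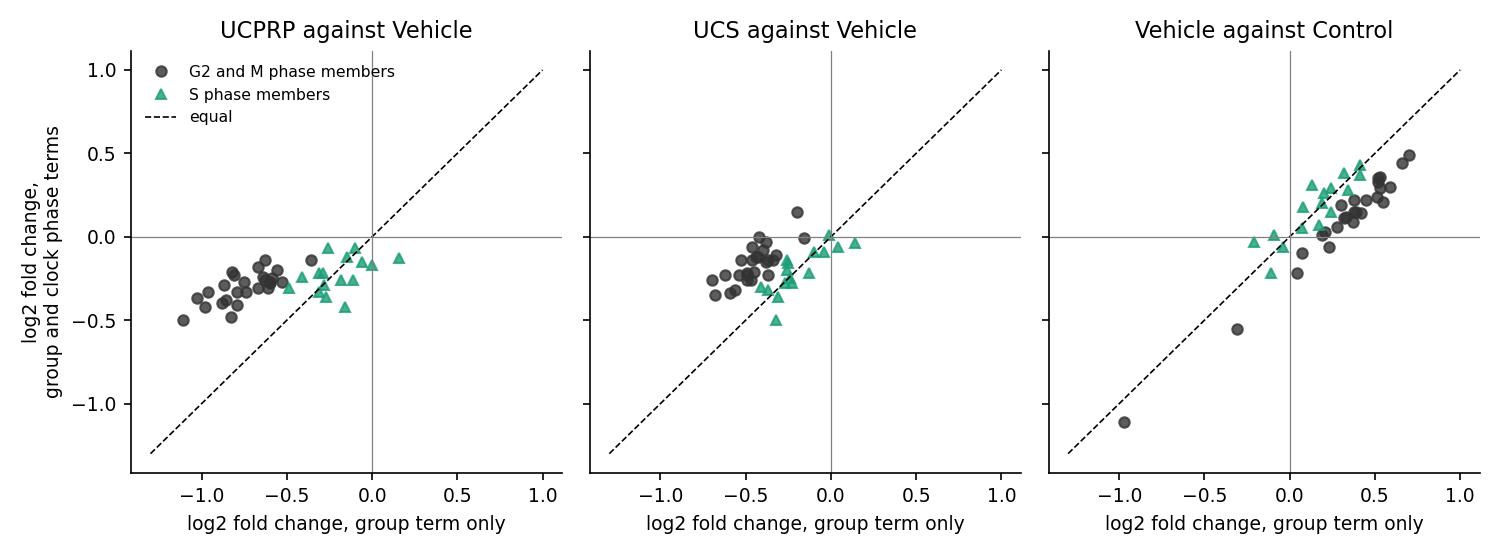
Log2 fold changes of the 42 members with the group term only (horizontal) and with clock state as a further term (vertical), for UCPRP against Vehicle, UCS against Vehicle and Vehicle against Control, with a dashed line of equality. Most G2 and M phase members lie nearer to 0 once clock state is a term. In Vehicle against Control (right) Kif23, the lowest point, lies further from 0, as do Cenpf, Nusap1 and Ccnb2.

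Both treated groups were also set against Control, to ask how far these genes stood from their uninjured levels. In UCPRP against Control 1 of 42 members fell, Kif23, where 5.07% of all genes fell, and none rose, where 5.3% of all genes rose, and the median was -0.29. Cenpf stood at -1.13 on the log2 scale (edgeR adjusted p = 0.0666, SE 0.35), and Rrm2 -0.60 (edgeR adjusted p = 0.188, SE 0.26). Cenpf was called by DESeq2 and Rrm2 in a fit of these 2 groups alone. In UCS against Control Kif23 was again the 1 member that fell, where 4.47% of all genes fell and 6.4% rose, and the median was -0.08.

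Other genes of the cycle were read from lists of known function. Among 15 genes of CDK inhibitors, pocket proteins and related brakes of the cycle 3 fell in Vehicle against Control and none rose, where 6.92% of all genes fell and 9.58% rose. Cdkn1a, the inhibitor p21, had 76.9, 75.8 and 61.4 CPM in UCPRP, 98.0, 76.7 and 95.2 CPM in UCS, 86.6, 75.6 and 87.0 CPM in Vehicle, and 138, 218 and 132 CPM in Control. Cdkn1b, the inhibitor p27, had 82.5, 85.4 and 84.9 CPM in UCPRP, 85.9, 77.1 and 72.3 CPM in UCS, 77.1, 78.4 and 79.5 CPM in Vehicle, and 125, 173 and 107 CPM in Control. Every injured library was below every Control library in both genes. Cdkn1a fell by 0.97 on the log2 scale (edgeR adjusted p = 0.00441, SE 0.19) and Cdkn1b fell by 0.78 (edgeR adjusted p = 0.00389, SE 0.15). Rb1, the retinoblastoma pocket protein, fell by 0.39, and all 3 fell in UCS and in UCPRP against Control as well.

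Of 15 other E2f and DREAM genes 3 rose in Vehicle against Control, Mybl2, E2f8 and E2f5, and none fell, where 9.58% of all genes rose and 6.92% fell. Mybl2, the B-Myb of the G2 and M phase programme, had 23.2, 20.6 and 16.6 CPM in UCPRP, 23.9, 21.6 and 18.3 CPM in UCS, 25.7, 20.3 and 19.7 CPM in Vehicle, and 7.62, 10.4 and 11.5 CPM in Control. Every injured library was above every Control library, and Mybl2 rose by 1.15 on the log2 scale in Vehicle (edgeR adjusted p = 0.00155, SE 0.19), in UCS by 1.11 and in UCPRP by 1.03. E2f8, a repressor of the E2f family, rose by 0.89 and E2f5 by 0.41, and E2f8 was not called by limma-voom (adjusted p = 0.0861). Of 8 genes of G1, the D cyclins and their kinases among them, 1 rose and 1 fell, beside the same shares of all genes. Myc, the growth factor-driven transcription factor, had 40.0, 35.7 and 39.9 CPM in UCPRP, 22.6, 22.5 and 26.5 CPM in UCS, 35.0, 33.1 and 27.5 CPM in Vehicle, and 12.7, 17.9 and 12.3 CPM in Control, with every injured library above every Control library, and rose by a log2 fold change of 1.15 in Vehicle against Control (edgeR adjusted p = 0.000476, SE 0.15). Ccnd1, cyclin D1, had 235, 212 and 201 CPM in UCPRP, 197, 182 and 187 CPM in UCS, 156, 123 and 173 CPM in Vehicle, and 295, 359.9 and 218 CPM in Control. Vehicle and UCS were below every Control library and UCPRP overlapped Control. Ccnd1 fell by 0.95 on the log2 scale in Vehicle against Control (edgeR adjusted p = 0.00379, SE 0.18). Ccnd2 stood at -0.49 (edgeR adjusted p = 0.153).

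Further genes of the same phases gave few calls. Of 32 other S phase genes 2 fell in Vehicle against Control, Cdca7 (-0.54) among them, and none rose. Of 36 other G2 and M phase genes 1 rose, Gtse1 (0.75), and none fell, where 9.58% of all genes rose and 6.92% fell. Gtse1 was not called by limma-voom (adjusted p = 0.054). The median log2 fold changes of these lists were 0.19 and 0.17. In the clock state fit the other G2 and M phase genes had a median of 0.47 with 35 of 36 above 0, the other S phase genes had a median of 0.03 with 18 of 32 above 0, and none was called. Wee1, the kinase that holds Cdk1 inactive and a known target of the clock, had 34.0, 33.3 and 31.8 CPM in UCPRP, 18.9, 35.0 and 29.0 CPM in UCS, 22.2, 16.8 and 29.9 CPM in Vehicle, and 28.6, 28.6 and 20.4 CPM in Control. It was lower in each low-Dbp library than in each high-Dbp one, with a log2 difference of -0.62 (edgeR adjusted p = 0.088, SE 0.11), and was called by DESeq2 but not by limma-voom.

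Over the 12 libraries the genes whose log2 level was most like the members' mean, of 12854 candidates with a mean of at least 5 CPM, included Tacc3 (Pearson r 0.969), Shcbp1 (0.963), Depdc1a (0.959) and Kif4 (0.959). All 12 points share the same libraries and scaling, so these values are a description.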

How the data were processed

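Whole cornea RNA was sequenced in 12 libraries, each a pool of corneas. Per the labels' protocols the kit was TruSeq Stranded Total RNA, and the submitters' processing notes name HISAT and GRCm38. The counting tool and strand setting were not given in the sources used here. Estimated counts per gene, with decimals and not scaled, are what the authors deposited. These counts were rounded to whole numbers, filtered with filterByExpr (minimum count 10), scaled by TMM (factors 0.825 to 1.067) and tested with edgeR 4.0.16 (robust quasi-likelihood, a term for each group, 12 libraries) in R 4.3.3, after a check on simulated data. SE is the absolute log2 fold change over the square root of F. DESeq2 1.42.0 and limma-voom 3.58.1 were alternatives. Libraries were low-Dbp where Dbp CPM was below Arntl CPM, a split that uses Dbp and Arntl alone. The biological coefficient of variation over all genes was 0.227. Replicates differed by at least 17.7 times the counting variance. Members, gene lists and the rule for the 27 members given library by library (fixed genes plus the smallest p of each role) were chosen with earlier results of these data known. P-values measure the spread between pools. Some genes of the other lists are not reported here.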

Additional observations from a re-analysis of the deposited data

How the results depend on the processing

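The alternatives were DESeq2, limma-voom, RLE scaling, no filter on low counts, a fit of the 2 groups compared, a replicate block, clock state as a term or log2 Dbp as a number, fits within high-Dbp or low-Dbp libraries, the retina share as a covariate, and leaving out each library. The number of members called in Vehicle against Control, 1, was 0 within the high-Dbp and 0 within the low-Dbp libraries and 0 to 6 on leaving out a library; the 6 were called without Vehicle replicate 3. In UCS against Control, 1 became 0 within high-Dbp, 0 within low-Dbp and 0 to 1 on leaving out a library. In UCPRP against Control, 1 became 2 with DESeq2 and 2 in the fit of the 2 groups. In UCPRP against Vehicle, 0 became 0 to 2 on leaving out a library. The 6 members called without Vehicle replicate 3 stood beside 2442 genes called in all, higher or lower, in Vehicle against Control. Low-Dbp fits have no UCPRP library, and within them UCS and Control have 1 library each. Same-numbered libraries did not deviate together in every pair of groups (r -0.62 to 0.54, above 0 for replicate 1 in the 3 pairs of injured groups), and with the replicate block the counts called were 1 in Vehicle, UCS and UCPRP against Control and 0 in the other comparisons, as without it, and in the clock state fit 5 of the 26 G2 and M phase members had an unadjusted p under 0.05, against 11 without the block.

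The members' median log2 fold change turned sign within the high-Dbp libraries, to -0.29 in Vehicle against Control, 0.44 in UCS against Vehicle, 0.17 in UCPRP against Vehicle and 0.15 in UCS against Control. On leaving out a library it ran from -0.24 to 0.05 in UCS against Control and from -0.29 to 0.03 in UCPRP against UCS. In Vehicle against Control, the log2 fold change within the high-Dbp libraries turned negative for Cdc6 (-0.62), Bub1 (-0.47), Mki67 (-0.45), Cdk1 (-0.43), Top2a (-0.42), Ccna2 (-0.34), Tyms (-0.34), Mcm2 (-0.30), Ccnb1 (-0.29), Kif11 (-0.29), Mcm5 (-0.29), Rrm1 (-0.21), Prc1 (-0.20), Plk1 (-0.16), Aurkb (-0.15), Tpx2 (-0.14), Mcm4 (-0.13), Cdt1 (-0.09), Cenpa (-0.08) and Cdc20 (-0.06). Within the low-Dbp libraries it turned positive for Ccne1 (0.55), Rrm2 (0.20) and Pcna (0.17) and was -0.01 for Mki67, which was -0.06 with clock state as a term. On leaving out a library it ran from -0.01 to 0.45 for Ccna2, -0.24 to 0.32 for Cdc6, -0.06 to 0.30 for Cdt1, -0.56 to 0.14 for Cenpf, -0.10 to 0.64 for Mki67, -0.14 to 0.10 for Pcna, -0.40 to 0.17 for Rrm2 and -0.07 to 0.39 for Tyms. None of these turned values was called. The cause was not tested.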

Other observations

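Among 19 core clock genes, Hlf, a relative of Dbp, fell in all 3 injured groups, with log2 fold changes of -0.84 in UCPRP, -0.96 in UCS and -1.39 in Vehicle against Control. Of all genes 5.07%, 4.47% and 6.92% fell in these comparisons. Hlf had 138, 145 and 152 CPM in UCPRP, 117, 148 and 135 CPM in UCS, 83.1, 83.6 and 130.0 CPM in Vehicle, and 264, 301 and 214 CPM in Control, with every injured library below every Control library. In UCS, Vehicle and Control the low-Dbp libraries were the lowest of their group, so clock state and group cannot be told apart in full in these fold changes. In the fit with clock state 10 of the 19 were called by edgeR, 2 higher and 8 lower in the low-Dbp libraries, where 0.0806% of all genes were called. Dbp, 1 of the 8, and Arntl, which was not called, define the split, so their order was fixed by it and is no result.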
